A study of Rattus norvegicus with 17 samples.

Results

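Slco1a1 (ENSRNOG00000036984, on chromosome 4) encodes an organic anion transporting polypeptide of the rat kidney, and its transcript was followed here through 12 kidneys left after sub-total nephrectomy (SNx) and 5 control kidneys (NoOp). It was 1 gene of the 23487 in the deposited count tables and of the 15438 that passed the filter on low counts, and it was found by its symbol. The gene was chosen because earlier results of these data had shown its level to scatter widely among the SNx libraries, so its levels in both groups and that scatter are given as a description, with no test.

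Each library was made from the kidney of a different rat. According to the study's methods the animals were male Wistar Han rats. The SNx operation took away part of the right kidney and later the whole left kidney, and the remnant was to be collected once proteinuria or serum creatinine had passed a set limit. According to the paper, only a minority of the SNx rats in the study with this number of controls reached that limit. They numbered fewer than 12, and the labels do not say which of the 12 libraries here are theirs. The labels call the controls NoOp, whereas the methods speak of sham operation for this study, so which of these the 5 controls had is not settled here. The labels give neither the day of collection nor the kidney function nor the RNA integrity of any rat, and the methods report a wide range of RNA integrity over all samples. Neither age nor a drug treatment is named for either group.

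Organic anion transporting polypeptides carry conjugated steroids, bile acids, thyroid hormones and many drugs across the cell membrane without sodium. In the rat kidney the Slco1a1 protein sits in the apical brush border of the last, straight stretch of the proximal tubule, and its transcript is known to be higher in males than in females. The kidney expresses several relatives, among them the apical Slco1a6 and Slc21a4 (also named Slco1a3, the source of the OAT-K transporters) and the basolateral Slco4c1, which takes up cardiac glycosides and thyroid hormone.

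Slco1a1, Slc21a4 and Slco1a6 are neighbours. In the RefSeq annotation of the GRCr8 assembly, chromosome 4 carries Slco1a4, Slco1a1, Slco1a3, Slco1a6 and Slco1a5 in this order with no other protein-coding gene between them. The 3 that had a symbol in the study's tables moved together in the SNx libraries, as described below, and the 250 bases before their RefSeq start sites are therefore shown, 5′ to 3′ on the minus strand. Slco1a1 stands for chr4:176681993-176682242, Slco1a6 for chr4:176839033-176839282 and Slc21a4 for chr4:176749724-176749973. The counts were made on an older build (rn6), and these positions were not carried over to it. Capitals mark the only match to the letters searched.
Slco1a1: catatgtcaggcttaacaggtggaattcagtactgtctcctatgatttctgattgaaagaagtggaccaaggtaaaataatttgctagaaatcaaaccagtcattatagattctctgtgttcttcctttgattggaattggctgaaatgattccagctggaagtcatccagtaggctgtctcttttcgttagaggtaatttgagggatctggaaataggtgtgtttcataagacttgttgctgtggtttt
Slco1a6: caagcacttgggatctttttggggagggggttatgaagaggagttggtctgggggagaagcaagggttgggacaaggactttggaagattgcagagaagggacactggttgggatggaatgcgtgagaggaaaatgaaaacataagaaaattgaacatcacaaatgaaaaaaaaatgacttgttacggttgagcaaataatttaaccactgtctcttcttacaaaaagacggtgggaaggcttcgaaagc
Slc21a4: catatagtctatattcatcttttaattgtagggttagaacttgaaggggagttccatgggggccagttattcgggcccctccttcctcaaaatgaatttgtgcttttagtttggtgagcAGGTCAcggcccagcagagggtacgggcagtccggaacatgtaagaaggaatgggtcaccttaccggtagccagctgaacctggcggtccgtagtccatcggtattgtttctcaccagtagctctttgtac
The letters searched, on both strands, were the HNF4 site CAAAGTCCA, and AGGTCA, the core shared by many nuclear receptor sites. AGGTCA was found in the Slc21a4 window, from base -131 to base -126 before the start, and 14.1% of the 33360 windows of this length in the table held it. CAAAGTCCA stood in 0.339% of all windows and in none of these 3. In a global alignment, 75.7% of the aligned bases of the Slco1a1 window were identical to that of Slco1a4, against 61.7% to Slco1a3, 55.2% to Slco1a6 and 51.9% to Slco1a5.

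In the NoOp libraries Slco1a1 stood at 191, 182, 342, 219 and 274 CPM (counts per 1000000 counts of the library, scaled with TMM factors) in NoOp 1 to 5, a mean of 241.5 ± 66.8 CPM (SD, n = 5). The highest control library was thus 1.88 times the lowest. The lowest control, NoOp 2, still rested on 5231 estimated counts.

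The 12 SNx libraries covered a far wider span. The highest were SNx 4 at 155 CPM (4339 counts), SNx 11 at 110 CPM (2362 counts) and SNx 9 at 94.6 CPM (2943 counts). These libraries kept 64.2%, 45.7% and 39.2% of the NoOp mean, and together they held 72.2% of the CPM summed over all SNx libraries. Next in order came SNx 2 at 41.4 CPM, SNx 12 at 29.8 CPM, SNx 7 at 28.4 CPM and SNx 3 at 24.1 CPM, or 9.97% to 17.1% of the NoOp mean. Below these the level ran down in steps. SNx 10 had 8.98 CPM (187 counts), SNx 8 had 3.66 CPM (84 counts) and SNx 6 had 1.77 CPM (36 counts). SNx 1 and SNx 5 had 9 counts each, or 0.431 and 0.379 CPM, and stood at 0.179% and 0.157% of the NoOp mean. In these libraries the transcript was almost lost, yet it was listed at 0 in none.

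All 12 SNx libraries lay below the lowest NoOp library. The same held for 9.55% of the 15438 tested genes, and as the gene was chosen on these values nothing is read from it. SNx 4 was 1.17 times below the lowest NoOp library, whereas SNx 5 was 480 times below it. Against the NoOp mean, 6 of 12 SNx libraries were under 10% and 3 of 12 under 1%.

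**Figure D1:**
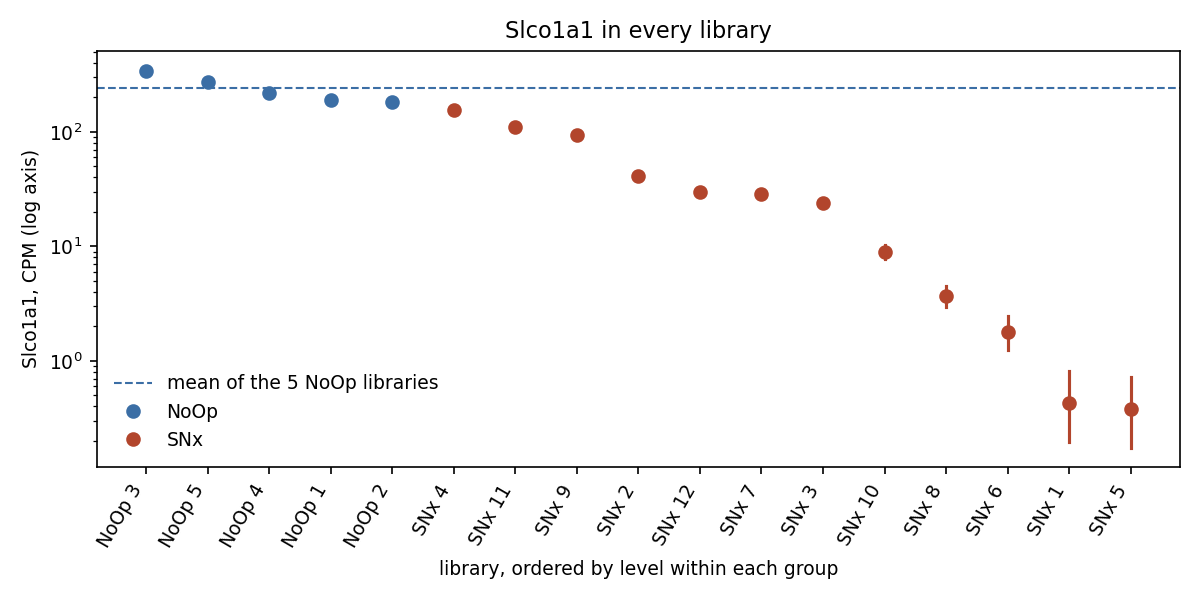
Slco1a1 in CPM on a log axis for the 5 NoOp (blue) and 12 SNx (red) libraries, ordered by level within each group. Points are the values, bars the 95% Poisson intervals of the estimated counts, and the dashed line the NoOp mean of 241.5 CPM. The SNx libraries run from 155 CPM in SNx 4 to 0.379 CPM in SNx 5, all below the NoOp libraries.

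The SNx levels formed a gradient and not a pair of groups. The ratio of the highest to the lowest SNx library was 409. On the log2 scale (log2 CPM with a prior count of 2) the SNx libraries spanned 8.42, and the widest gap between neighbours in their order, from SNx 6 to SNx 1, was 1.87, or 22.2% of that span. Of the 11 pairs of neighbours, 2 had overlapping 95% Poisson intervals of their counts, namely SNx 12 with SNx 7 and SNx 1 with SNx 5. These intervals cover counting error only. With each library taken as 1 rat, the spread between rats and the error of library preparation cannot be told apart.

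The SD of Slco1a1 over the SNx libraries was 2.92 log2 CPM, against 0.38 over the NoOp libraries. The median SD over all tested genes was 0.29 in SNx and 0.17 in NoOp. Slco1a1 ranked 25th by SD in SNx among the 15438 tested genes and 12th among the 13185 whose mean was 1 log2 CPM or more. Of the 1892 such genes with a symbol, Cacng5, a calcium channel subunit, had a larger SD at 3.27, and Slco1a6 followed closely at 2.72. These ranks describe the scatter for which the gene was chosen.

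The difference of group means was -4.19 log2 CPM, the SNx mean being 3.68 ± 2.92 (SD, n = 12) and the NoOp mean 7.88 ± 0.38 (SD, n = 5). edgeR's model gave a log2 fold change of -2.54 (standard error, SE, 0.88), which is smaller because it compares mean counts and the few SNx libraries that kept the transcript dominate that mean. Without SNx 4 the fold change was -2.95, and without each other library in turn it lay between -2.39 and -2.77. In bulk kidney RNA, fewer straight proximal tubule cells and less Slco1a1 RNA per cell cannot be told apart.

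Slco1a6, a relative from the same cluster on chromosome 4, had a similar pattern on a similar scale. It stood at 414 to 568 CPM in controls and ran from 349 CPM in SNx 11 to 0.767 CPM in SNx 1. Every SNx library lay below every NoOp library. Slco1a6 fell by 2.34 on the log2 scale (SE 0.79) with an adjusted p of 0.0176 in edgeR's test, and 27.7% of all tested genes were called lower by the same test. Over the 12 SNx libraries its log2 CPM rose with that of Slco1a1 (Pearson r = 0.944 with a permutation adjusted p of 0.000408 over 15437 genes, Spearman rho = 0.944 with one of 0.000570). Without SNx 5 and SNx 1 this r was 0.903, and it was 0.976 and 0.848 within the lower and the upper range of title numbers (the numbers in the library titles fall into a low and a high range, with 6 SNx libraries in each).

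The transcripts did not move in a fixed ratio. The difference Slco1a1 minus Slco1a6 was -1.04 ± 0.45 log2 CPM in NoOp (SD, n = 5) and ranged in SNx from -0.15 in SNx 4 to -3.87 in SNx 8. SNx 8 had kept 11.2% of the NoOp mean of Slco1a6 but 1.52% of that of Slco1a1, whereas SNx 4 had kept 35.4% and 64.2%. In 9 of 12 SNx libraries Slco1a6 was reduced less than Slco1a1 relative to the NoOp mean of log2 CPM. The slope of Slco1a6 on Slco1a1 across the SNx libraries was 0.88 on the log2 scale. The deposited values are estimates from transcript quantification, and reads shared by near-identical members of this gene cluster may have been divided between them, so their separate levels are uncertain.

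Slc21a4 had a similar order with a flatter course. It stood at 222 to 323 CPM in NoOp. SNx 11 with 322 CPM and SNx 9 with 232 CPM were within that range, while SNx 5 had 11.7 CPM and SNx 1 had 5.51 CPM. Slc21a4 thus remained at 2.10% of its NoOp mean in the library where Slco1a1 was at 0.179%. It differed by -1.26 on that scale (SE 0.57) and did not pass edgeR's test (adjusted p = 0.0676), although limma-voom called it with -1.89 (adjusted p = 0.0428). The edgeR call was gained without SNx 1, 9 or 11 in turn (adjusted p = 0.0491, 0.0439 and 0.0205). Its r with Slco1a1 was 0.935 and its slope 0.54.

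Slco4c1 on the basolateral side had the flattest slope of these transcripts, 0.38, and a near-perfect rank order with Slco1a1 (rho = 0.972, r = 0.916). It was at 46.0 to 82.7 CPM in NoOp and at 2.25 CPM in SNx 1 to 46.7 CPM in SNx 11, so SNx 11 reached the lowest control. Slco4c1 fell by 1.90 (SE 0.45, adjusted p = 0.00194).

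The remaining relatives had other patterns. Slco2a1, the prostaglandin transporter, fell by 0.93 (SE 0.27, adjusted p = 0.00788), but SNx 1, which had almost no Slco1a1, kept 104.6% of the NoOp mean of Slco2a1 (r = 0.175, adjusted p = 0.671). This r rested on single libraries, being 0.629 without SNx 1 (adjusted p = 0.0860) and -0.121 without SNx 5 (adjusted p = 0.788). The lower level of Slco2a1 was not called with the lower number range of SNx alone (adjusted p = 0.0611). Slco3a1, a broadly expressed relative, rose by 0.80 (SE 0.13, adjusted p = 7.49e-05), above every NoOp library in all 12, and went against Slco1a1 (r = -0.867, adjusted p = 0.00215). It was at 127% of the NoOp mean in SNx 11 and at 216% in SNx 1. Slco4a1 differed by 0.17 (SE 0.34, adjusted p = 0.678) and had an r of -0.157 (adjusted p = 0.711). Of the 6 relatives, 3 were called lower and 1 higher, beside 27.7% and 30.3% of all tested genes. These relatives are those with a symbol in the study's tables of changed genes, so their direction is not independent evidence. Among the 1996 tested genes with a symbol other than Slco1a1, 808 were lower and 1067 higher. The median log2 fold change of the 6 relatives was -1.10, against 0.02 over all tested genes. It was 0.49 over the 1996 with a symbol and -1.10 over the 808 lowered ones.

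**Figure D2:**
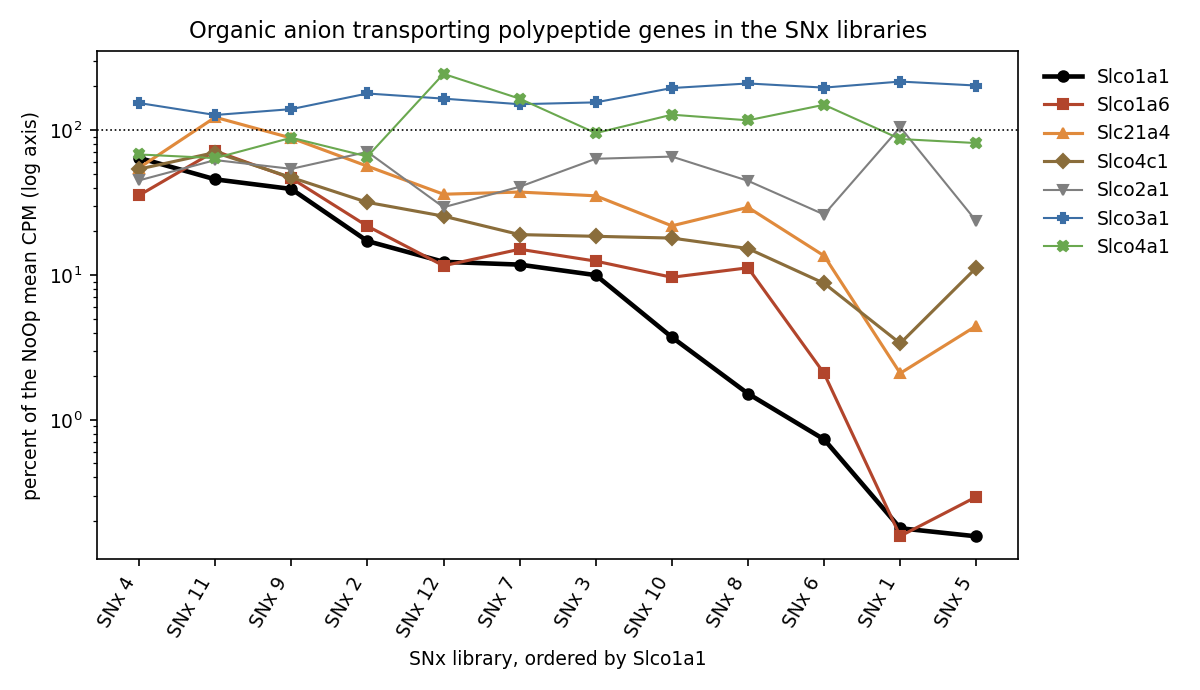
Percent of the NoOp mean CPM (log axis) for Slco1a1 and 6 relatives in the 12 SNx libraries, ordered from the highest to the lowest Slco1a1, with lines drawn to guide the eye and a dotted line at 100%. Slco1a1, Slco1a6, Slc21a4 and Slco4c1 run down together with unlike slopes, to 0.157%, 0.294%, 4.45% and 11.2% in SNx 5, while Slco3a1 stays above 100% throughout.

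Which measure of a whole library went with Slco1a1 was examined next, over the 12 SNx libraries and for 3 measures. The first principal component (PC1) of the SNx libraries, computed without the Slco genes and signed so that Hnf4a loads positively, held 48.2% of their variance. Slco1a1 rose with it (r = 0.961, permutation p = 1e-05, the smallest that 100000 permutations can give, adjusted p = 3e-05 over the 3 measures, rho = 0.944 with p = 2e-05). The component was centred but not scaled, so genes of wide scatter weigh most in it, and Slco1a1 was chosen for such scatter. How common such an r is among genes of like scatter was not tested. Without SNx 5 and SNx 1, the libraries farthest from the median of Slco1a1, the r of Slco1a1 with PC1 was 0.941 (permutation p = 0.00021). In the 6 libraries of the lower range of title numbers r was 0.979 (exact permutation p = 0.00417) and in the 6 of the upper range 0.925 (exact permutation p = 0.0167). All NoOp libraries carry title numbers of the lower range, and the labels do not say what the ranges stand for.

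The largest departures from the line of Slco1a1 on PC1 were SNx 10, which had 1.67 log2 CPM more Slco1a1 than the line gave, and SNx 5, which had 1.36 less, and the SD of all departures was 0.81.

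Depth and composition moved with Slco1a1 as well. SNx libraries held 19210434 to 30784070 counts and NoOp libraries 30454170 to 43876369. Among the SNx libraries Slco1a1 rose with the total (r = 0.665, permutation p = 0.0196, adjusted p = 0.0266, rho = 0.580 with p = 0.0519). Without SNx 5 and SNx 1 this r was 0.645 (permutation p = 0.0455), and it was 0.832 and 0.545 within the lower and upper number ranges (exact permutation p = 0.075 and p = 0.279). Against the TMM factor, which was 0.980 to 1.11 in SNx libraries but 0.879 to 0.941 in controls, r was -0.639 (permutation p = 0.0266, adjusted p = 0.0266, rho = -0.727 with p = 0.00943). Without SNx 5 and SNx 1 it was -0.556 (permutation p = 0.0957), and within the lower and upper ranges -0.953 and -0.451 (exact permutation p = 0.00278 and p = 0.379). The relation with the total fell short of the threshold without SNx 1 (permutation p = 0.0524). That with the factor fell short without SNx 1, 4 or 11 in turn (permutation p = 0.0666, 0.0734 and 0.0636) and with RLE factors in place of TMM (permutation p = 0.0707). The part of depth and composition in the level of Slco1a1 was not tested.

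**Figure D3:**
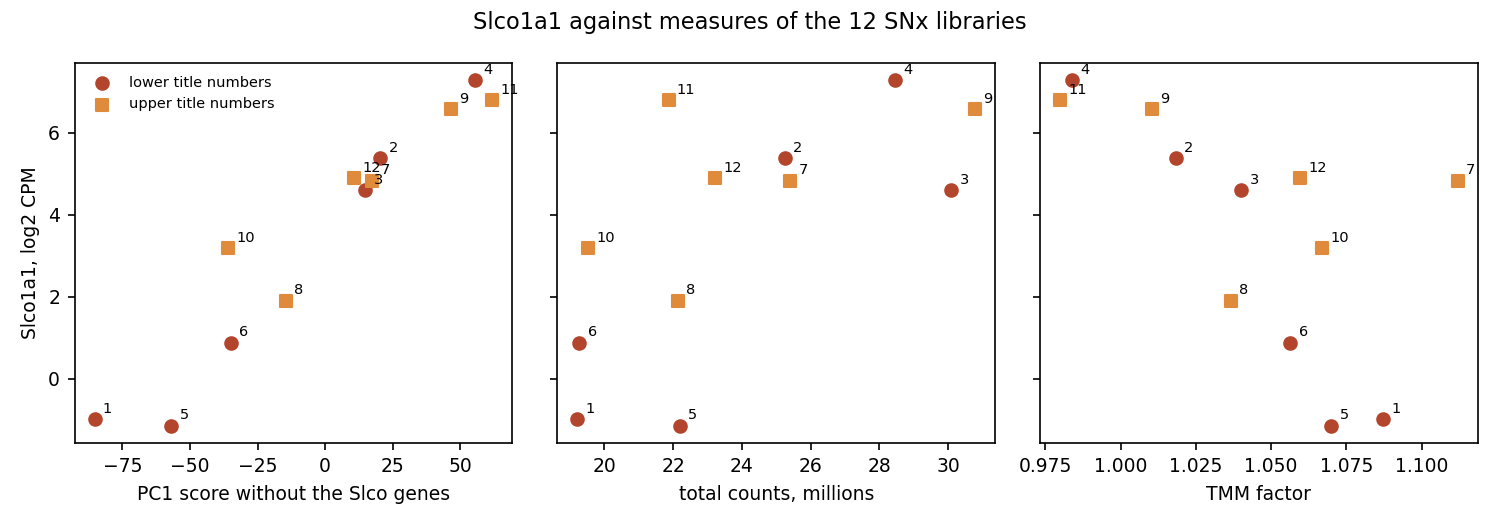
Slco1a1 in log2 CPM against the PC1 score, the total counts (in units of 1000000) and the TMM factor of the 12 SNx libraries, each point labelled with its library number and marked by the range of its title number. The points follow PC1 closely (r = 0.961) and the other measures loosely (r = 0.665 and r = -0.639).

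Across all genes, 3753 of 15437 (24.3%) correlated positively with Slco1a1 over the SNx libraries and 3247 (21.0%) negatively, at a permutation adjusted p under 0.05. A high r was thus common, and the genes most alike are named by their order. Among the genes with a symbol and a mean of 1 log2 CPM or more, the 10 with the highest r, from 0.974 to 0.983, included Elfn1, Ovol1, Pm20d1, Kmo, Pyroxd2, Aqp1, Ppm1k, Abhd14a and Slc6a18. The adjusted permutation p was 0.000277 for each r and 0.000570 to 0.00108 for their rho. Without SNx 5 and SNx 1 their r lay between 0.939 and 0.967, and within the upper number range between 0.911 and 0.986. All 10 were called lower in SNx, as were 27.7% of all tested genes. Of the 780 genes with a symbol that correlated positively with Slco1a1, 743 were called lower as well.

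Several of these act in metabolism or transport of the proximal tubule. Elfn1, best known as a synaptic adhesion protein, came first (r = 0.983, rho = 0.986) and ran from 5.38 log2 CPM in SNx 4 to 0.37 in SNx 5, against 6.28 to 6.72 in NoOp. Aqp1, the constitutive water channel of the proximal tubule, ran from 10.71 in SNx 4 to 7.51 in SNx 1. Kmo, the kynurenine 3-monooxygenase, fell by 1.59 (SE 0.49, adjusted p = 0.0109). Ovol1, an epithelial zinc finger factor, fell by 1.44 with an SD of 0.63 log2 CPM in SNx, so r was alike in genes whose scatter was far smaller than that of Slco1a1. Of the genes without a symbol, ENSRNOG00000047369 had the highest r of all at 0.985, and ENSRNOG00000015851 followed with 0.983.

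In the opposite direction, the 5 genes with a symbol and the lowest r were Cd276, Etv4, Mab21l3, Tgif1 and Phldb1, from -0.981 to -0.970. Cd276, an immune checkpoint ligand also made by epithelia, stood at 5.01 log2 CPM in SNx 11 and 5.08 in SNx 4 but at 6.49 in SNx 1 and 6.73 in SNx 5, against 3.60 to 4.16 in NoOp. Etv4, an ETS factor, rose by 2.54 (SE 0.50, adjusted p = 0.000539), and Tgif1, a repressor of TGF-beta signalling, by 1.87 (SE 0.32, adjusted p = 0.000162). All 5 were above every NoOp library in all SNx libraries, as were 13.5% of the tested genes and 837 of the 1996 with a symbol. The r of these 5 genes without SNx 5 and SNx 1 was between -0.969 and -0.945. Without symbols, ENSRNOG00000006738 (r = -0.982) and ENSRNOG00000010497 (r = -0.978) were the lowest.

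Gene lists were compared with Slco1a1 by their counts and medians. Symbols came from the study's tables of changed genes, so the lists hold genes already picked as changed, and their direction is not independent evidence. Of the 1996 other tested genes with a symbol, 808 were called lower in SNx, and 743 of these correlated positively with Slco1a1, with a median r of 0.891. That median is the value against which the lists of lowered genes are read. The naming rule picked 49 genes whose r was called, and the sign of r was the same in all 49 within the lower and within the upper number range.

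Other organic ion transporters were mostly lower in SNx. Of 16 measured, 11 were lower, 1 was higher and 4 did not pass the test, the median log2 fold change being -1.42. By the same test 27.7% of all tested genes and 808 of the 1996 with a symbol were lower. A positive correlation was called for 15 of the 16, beside 24.3% of all tested genes. The list's median r of 0.887 was near the 0.891 of the lowered genes with a symbol, of which 743 of 808 correlated positively. Slc13a2, the apical citrate and dicarboxylate cotransporter, had the highest r (0.973) and fell by 2.09 (SE 0.53, adjusted p = 0.00309), from 6.72 to 7.39 log2 CPM in NoOp to 1.56 in SNx 1 and 6.29 in SNx 11. Slc22a2, the basolateral organic cation transporter OCT2, fell by 2.10 (SE 0.66, adjusted p = 0.0118) with an r of 0.963. Slc10a5, of the bile acid transporter family, fell by 1.68 (SE 0.42, adjusted p = 0.00284), also at an r of 0.963. Slc22a25 fell by 1.76 (SE 0.66, adjusted p = 0.0310, r = 0.944), a call that was lost without NoOp 1, 2, 3 or 4 (adjusted p = 0.0515 to 0.0578). Slc17a4 was the exception. This apical phosphate and organic anion transporter rose by 2.12 (adjusted p = 6.98e-05) and went against Slco1a1 (r = -0.830, adjusted p = 0.00576).

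Genes listed as markers of the proximal tubule or its brush border were also mostly lower. Of 37 measured, 34 were lower, Slc2a2 was higher, and Dab2 and Tmem27 did not pass, with a median log2 fold change of -1.39. By the same test 27.7% of all tested genes and 808 of the 1996 with a symbol were lower. A positive correlation was called for 31, beside 24.3% of all tested genes and 743 of the 808 lowered genes with a symbol. The median r of 0.911 was close to the 0.891 of all lowered genes with a symbol. Anpep, the aminopeptidase N of the brush border, had an r of 0.974, with 9.74 log2 CPM in SNx 4 and 5.71 in SNx 1 against 10.51 to 10.65 in NoOp. Slc23a1, the vitamin C transporter, fell by 1.87 (SE 0.47, adjusted p = 0.00308), and Slc6a18, a neutral amino acid transporter, by 1.65 (SE 0.43, adjusted p = 0.00407). Slc3a1, the heavy subunit of the cystine transporter, had an r of 0.954 and Dpp4, a brush border peptidase, one of 0.852. Vnn1, with an r of 0.381 (adjusted p = 0.316), fell by 1.30 (adjusted p = 0.00176).

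Transcripts of the proximal tubule list were counted in every library. No gene of that list was at 0 counts in any library. The summed CPM of the list was 27730 to 32250 in NoOp libraries, with 2829 to 20810 left in SNx. Slco1a1 went down to 0.157% of its control mean in SNx 5, and Slco1a6 to 0.1575% of its own in SNx 1. The list was not chosen for the straight stretch of the tubule, and the part of cell loss in these levels was not tested.

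Receptors and transcription factors of the tubule were lower in 11 of 12 cases, 1 did not pass the test, and 10 correlated positively (median r = 0.922). These counts stand beside 27.7% lower and 24.3% positive among all tested genes, and beside 743 positive of the 808 lowered genes with a symbol. Those 808 were part of 1996 tested genes with a symbol. Hlf, a PAR-family factor, had the highest r (0.973, rho = 0.916), with 3.63 log2 CPM in SNx 4 and 0.60 in SNx 1 against 4.21 to 4.56 in NoOp. Esr1, the estrogen receptor, fell by 1.47 (SE 0.46, adjusted p = 0.0117, r = 0.965). Prlr, the prolactin receptor, fell by 1.78 (SE 0.49, adjusted p = 0.00568, r = 0.962), and Klf15, a glucocorticoid-induced factor, by 1.57 (SE 0.33, adjusted p = 0.000776, r = 0.958). Hnf4a, a factor of proximal tubule identity, fell by 1.37 (adjusted p = 0.0028) with an r of 0.918.

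Genes that handle the substrates of the transporter were mixed. Of 8 genes of steroid, bile acid and thyroid hormone metabolism, 5 were lower, Hsd3b7 and Gusb were higher, and Sult1b1 did not pass. Among all tested genes 27.7% were lower and 30.3% higher, and among the 1996 with a symbol 808 were lower and 1067 higher. Iyd, which recovers iodide from iodotyrosines, fell by 1.99 (SE 0.54, adjusted p = 0.0049) and had an r of 0.956. Dio1, the type 1 deiodinase that activates thyroid hormone, fell by 1.44 (SE 0.60, adjusted p = 0.0466, r = 0.935), and its call was lost without any of the NoOp libraries or of SNx 2, 3, 6, 7, 8, 10 and 12 (adjusted p = 0.0554 to 0.0809). Hsd17b1, which reduces estrone, fell by 2.13 (SE 0.26, adjusted p = 6.11e-06, r = 0.922). Sult1b1, a thyroid hormone sulfotransferase, differed by -0.87 (adjusted p = 0.0899, and 0.0498 without SNx 1) and had an r of 0.871. Hsd3b7, of bile acid synthesis, rose by 0.89 (adjusted p = 3.64e-05) and went against Slco1a1 (r = -0.840).

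**Figure D4:**
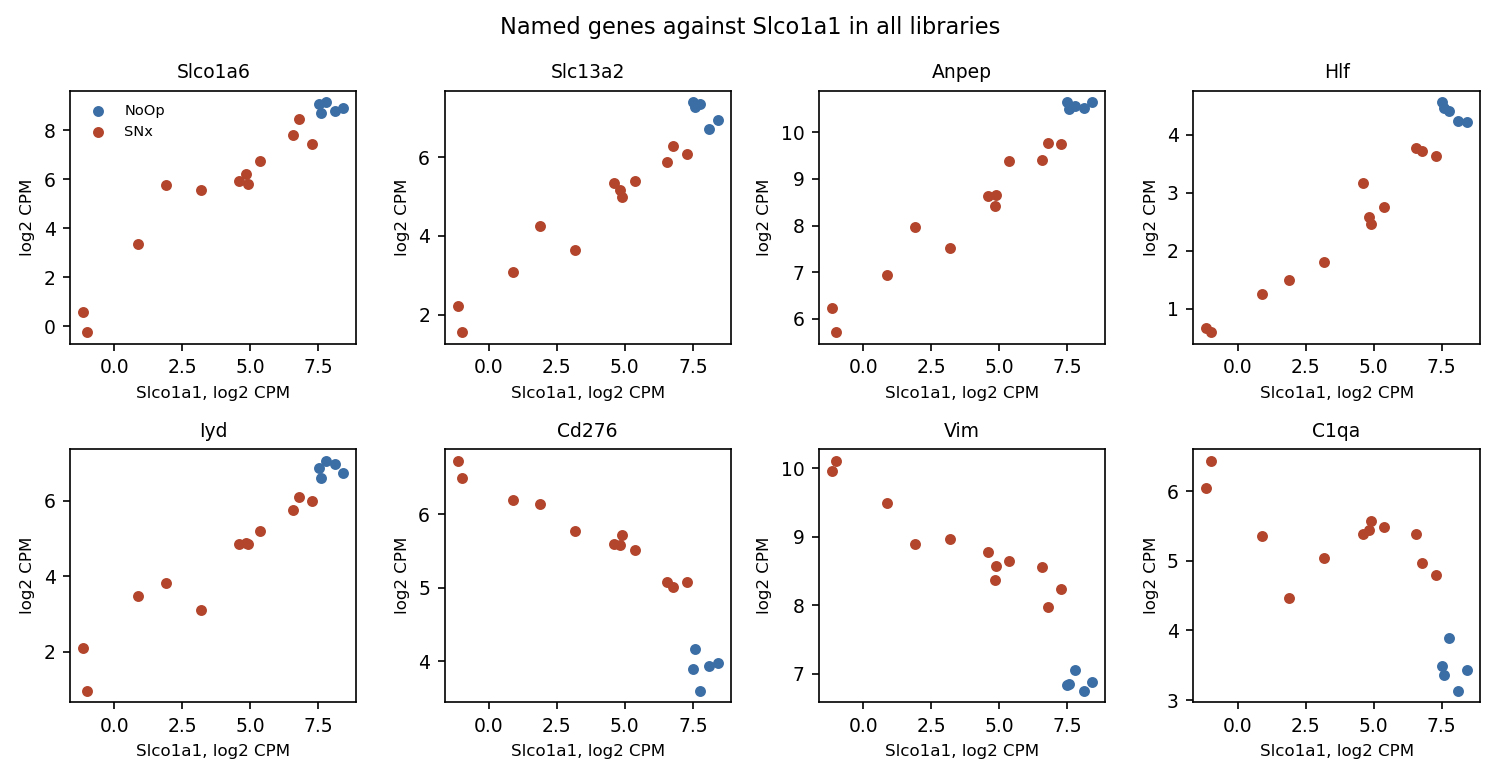
Log2 CPM of 8 named genes against log2 CPM of Slco1a1 in the 5 NoOp (blue) and 12 SNx (red) libraries, 1 point per library. Slco1a6, Slc13a2, Anpep, Hlf and Iyd rise with Slco1a1 among the SNx libraries, Cd276 (r = -0.981) and Vim (r = -0.952) decline, and C1qa (r = -0.539, not called) is more scattered.

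Genes of tubular injury and fibrosis were all higher in SNx, 16 of 16, beside 30.3% of all tested genes and 1067 of the 1996 with a symbol. A negative correlation with Slco1a1 was called for 11 of them (median r = -0.740). The same call was made for 21.0% of all tested genes and for 657 of the 1996 with a symbol. Vim, an intermediate filament of mesenchymal and injured epithelial cells, had the lowest r (-0.952, rho = -0.930), with 7.98 log2 CPM in SNx 11 and 10.11 in SNx 1. Myc (r = -0.949), Cd44 (r = -0.929) and Lcn2 (r = -0.925), a secreted tubular injury protein, followed. Clu, another secreted protein, had an r of -0.762.

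The correlation was not called for every member of this list. Col3a1 rose by 2.74 (SE 0.39, adjusted p = 2.84e-05), but its r with Slco1a1 was -0.341 (adjusted p = 0.385), and it turned to 0.152 without SNx 1 and to 0.339 without SNx 5 and SNx 1. For Col1a1, a collagen chain, the r was -0.558 (adjusted p = 0.0836), for Fn1, fibronectin, -0.593 (adjusted p = 0.0729), for Timp1, an inhibitor of matrix proteases, -0.479 (adjusted p = 0.181) and for Krt19, a keratin, -0.465 (adjusted p = 0.198). Without SNx 5 and SNx 1 the r of Col1a1 was 0.0162, that of Timp1 0.0848 and that of Fn1 -0.0658.

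Markers of other cells differed between the groups. All 10 leukocyte markers were higher in SNx, above every NoOp library, with a summed CPM of 336.9 to 836.1, against 127.5 to 193.2 in the controls. Of all tested genes 30.3% were called higher and 13.5% lay above every NoOp library. Of the 1996 tested genes with a symbol, 1067 were called higher and 837 lay above every NoOp library. The median r was -0.327 and turned to 0.267 without SNx 5 and SNx 1. A negative correlation was called for Cd68, of macrophages (r = -0.691, adjusted p = 0.0334), and it was lost without SNx 1, 4, 5 or 11 in turn. C1qa, C1qb and C1qc, complement chains made by macrophages, had r of -0.539, -0.598 and -0.511 with adjusted p of 0.125, 0.0785 and 0.150. Without SNx 8 all 3 passed, at r of -0.775, -0.843 and -0.744, while within the upper number range their r were 0.581, 0.460 and 0.496.

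Of 19 markers of other kidney cells, 8 were lower and 8 higher, beside 27.7% and 30.3% of all tested genes. Of the 1996 tested genes with a symbol, 808 were lower and 1067 higher. Among the 19 markers, 6 correlated positively with Slco1a1 and 2 negatively, beside 24.3% and 21.0% of all tested genes. The median r was 0.224, and 0.0699 without SNx 5 and SNx 1. Their summed CPM was 1038 to 1616 in SNx libraries against 1600 to 1727 in controls, and 3 of them, S100g, Upk2 and Upk3a, were at 0 counts in some SNx libraries. Cldn10, a claudin of the thick ascending limb and proximal tubule, had an r of 0.906. Cldn19, the other listed marker of that limb, rose by 0.99 (adjusted p = 0.000157). Its r was -0.483 (adjusted p = 0.179). The markers listed for intercalated cells were divided. The proton pump subunits Atp6v1a and Atp6v0a4 had r of 0.887 and 0.845, and Hepacam2 had 0.665 (adjusted p = 0.0425). Slc26a4 and Slc4a9 had an r of 0.224 each and were not called (adjusted p = 0.575 and 0.577). S100g, the calbindin of the distal tubule, had an r of 0.853, which without SNx 5 and SNx 1 was 0.700 and no longer passed (adjusted p = 0.0687). Trpv6 and Trpv5, calcium channels of the distal tubule, rose by 5.52 and 1.52 (adjusted p = 2.65e-07 and 0.000616), with r of -0.846 (adjusted p = 0.00265) and -0.618 (adjusted p = 0.0630). Postn, a matrix protein, was the other negative one (r = -0.696, adjusted p = 0.0193). Ptpro, of the podocyte, fell by 1.32 (SE 0.18, adjusted p = 1.61e-05) with an r of 0.849. The part of these cell types in the level of Slco1a1 was not tested.

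**Figure D5:**
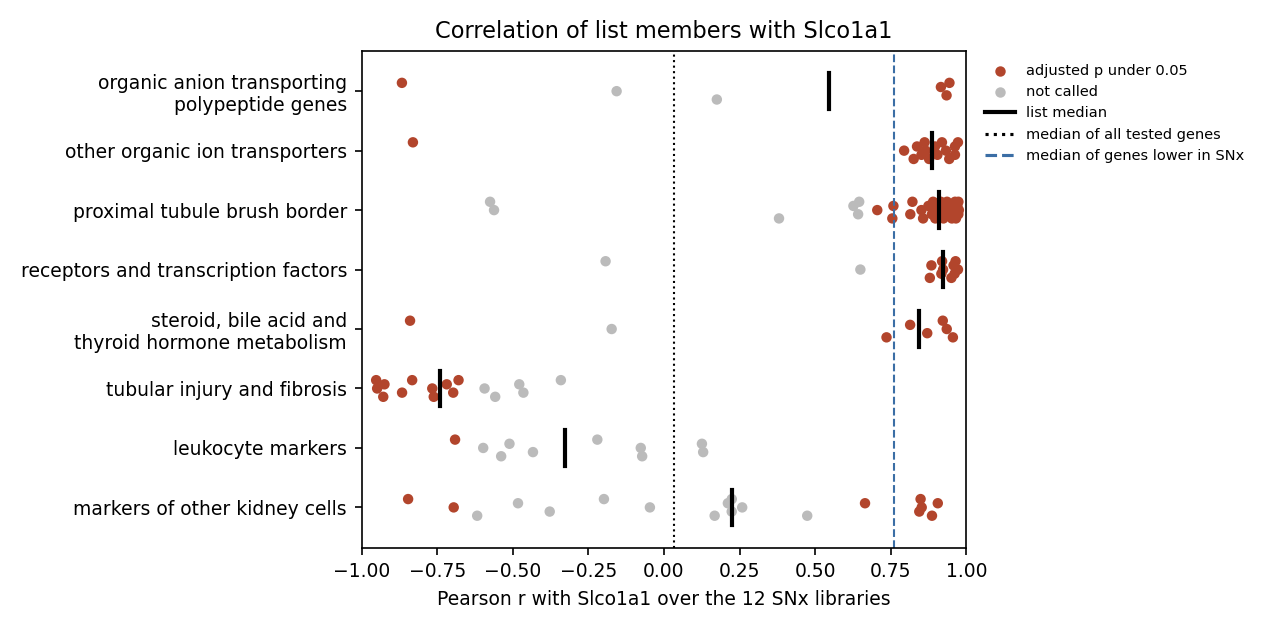
Pearson r with Slco1a1 over the 12 SNx libraries for every member of the 8 gene lists, red where the permutation adjusted p over 15437 genes was under 0.05. Black bars are list medians, the dotted line the median of all tested genes (0.03) and the dashed line that of the genes lower in SNx (0.76). The lists hold only genes with a symbol, and the median of the lowered genes with a symbol (0.891) is not drawn. Transporters, brush border genes and transcription factors gather near the right edge, injury genes at the left, and leukocyte markers between them.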

How the data were processed

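Kidney RNA for 12 SNx and 5 NoOp libraries was depleted of ribosomal RNA, and the libraries were stranded and sequenced paired-end. By the study's methods, transcripts were quantified on an Rn6 transcriptome (selective alignment) and brought to gene level by tximport. The authors deposited the resulting estimated counts as whole numbers. Replicates were not pooled. The submitters' processing notes name Salmon, limma and the build rn6, without tool versions. The authors also deposited log2 values after limma's voom transformation for 13318 of the 23487 genes, used here in an alternative only. The 34 whole-series columns held the same values as the tables per library and were not used. Columns of the study's supplementary tables that hold fold changes and p-values were not used, and symbols for 2001 identifiers were read from those tables.

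Counts were rounded, which changed nothing, filtered with filterByExpr and scaled with TMM. edgeR 4.0.16 in R 4.3.3 compared SNx with NoOp by its quasi-likelihood test, two-sided, at a Benjamini-Hochberg adjusted p under 0.05 over 15438 genes. The study's methods name limma, which was kept as an alternative (limma 3.58.1) with DESeq2 1.42.0. Standard errors (SE) follow from each fold change divided by the root of its F. Log2 CPM used a prior count of 2. Correlations over the 12 SNx libraries used 100000 permutations (all 720 orders for 6 libraries), two-sided, with adjustment over 15437 genes or over the 3 library measures. Counting intervals are exact 95% Poisson intervals. On simulated counts for 15364 genes with 200 changed in SNx against NoOp, edgeR called 189 of the 200 and 9 others, limma-voom 189 and 10, and DESeq2 193 and 34. In this simulation both groups had the same dispersion for each gene, whereas the median SD was 0.29 in SNx and 0.17 in NoOp. It therefore does not show how the tests behave under unequal spread. Plots used matplotlib 3.10.9 under Python 3.11.15.

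Promoter windows came from RefSeq (GRCr8) and were aligned globally (match 1, mismatch -1, gap -2). Named genes are the Slco family with a symbol, at most 4 members of each other list with the largest absolute r, the 10 genes with the highest and 5 with the lowest r among genes with a symbol and a mean of at least 1 log2 CPM, at most 2 identifiers without a symbol in each direction, and Slc3a1, Dpp4, Lcn2, Clu and Col3a1. Further list members that are named, such as Hnf4a, Slc17a4, Vnn1, Hsd3b7, Col1a1, Fn1, Timp1, Krt19, Trpv5, Trpv6 and Postn, were chosen after their values were seen. Some genes that the rule or the lists hold are not reported here. The gene and the lists were chosen with earlier results of these data known. Labels give 1 kidney per library, and p-values measure the spread between these samples.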

Additional observations from a re-analysis of the deposited data

Results flagged for a closer look

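Among the 56 named genes tested for a NoOp library apart from the other 4, 2 were found, where chance alone would give about 2.8 (1 in 20). Aqp1 in NoOp 1 was 10.99 log2 CPM, with the other NoOp libraries between 11.49 and 11.68. Atp6v1a in NoOp 5 was 8.21 log2 CPM (8.205), with the others between 8.385 and 8.39. Slco1a1 itself had no NoOp library apart.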

How the results depend on the processing

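No paired analysis was possible because the labels carry no replicate numbers, and the numbers used here follow accession order. The difference in Slco1a1 between groups stayed between -5.21 and -3.18 log2 CPM, and its SD in SNx between 1.90 and 3.56, the extremes being the lower and upper number ranges. The count of other organic ion transporters called lower was 6 with the lower number range of SNx alone and 10 to 13 under other scalings and tools. It was 8 without NoOp 2, and 10 to 13 without each other library in turn. Genes correlated positively with Slco1a1 numbered 2301 without SNx 5 and SNx 1, negatively 2137, and within either number range alone 0 passed in each direction, where 6 libraries give no smaller p than 1 order in 720 allows. The relation with total counts no longer passed by Spearman (0.580) or within the lower (0.832) and upper (0.545) ranges, each of 6 libraries, and lay between 0.598 and 0.773 with each SNx library left out. That with the TMM factor lay between -0.844 (without SNx 7) and -0.561 (without SNx 4) on leaving out libraries, was -0.556 without SNx 5 and SNx 1, -0.539 with RLE factors and -0.451 in the upper range. Relations with PC1 kept their direction and call.

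Among the genes picked by the naming rule, these values turned sign, none of them called: Slco2a1 r (-0.121 without SNx 5 to 0.629 without SNx 1), Slco4a1 log2 fold change (-0.0049 without NoOp 1 to 0.53 without NoOp 5, and -0.14 in the lower range), and r of C1qb 0.460, C1qa 0.581, C1qc 0.496 and Col3a1 0.424 in the upper range, C1qa 0.118, C1qc 0.0661 and Col3a1 0.339 without SNx 5 and SNx 1, and Col3a1 0.152 without SNx 1 to -0.513 without SNx 8. Of the 124 members of the 8 lists, 15 turned the sign of r without SNx 5 and SNx 1 (6 leukocyte markers, 5 markers of other kidney cells, 3 injury and fibrosis genes and Gusb), and 0 of these 15 had a called r over all 12 SNx libraries. Scaling by library size alone took the median of all genes' log2 fold changes from 0.02 to 0.23 and the calls from 4277 lower and 4672 higher to 2403 and 7044, and no named gene turned sign under it. For Slco1a1 itself, SNx 1 and SNx 5 rest on 9 counts each.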
